A study of Mus musculus with 6 samples.

Results

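Adipocytes secrete chemokines, cytokines and acute phase proteins, and 10 genes of this kind were followed here in 3T3-L1 adipocytes that carried either a control or an *Lmo3* adenovirus. The 10 genes are the CC chemokines *Ccl2*, *Ccl7* and *Ccl9*, the CXC chemokines *Cxcl1* and *Cxcl5*, the cytokines *Il6* and *Csf1*, and the acute phase genes *Saa3*, *Lcn2* and *Hp*. They were taken by symbol, with no threshold on a measured value, from the 24421 gene symbols counted, and all 10 had enough counts to be tested. The list was chosen with earlier results of these data known. *Hp* and *Cxcl5* were called higher in AdLmo3 adipocytes, none of the 10 was called lower, and 8 did not pass the test. Of all tested genes, 2.71% were called higher and 1.57% lower. The call of *Hp* held in all 14 other fits, which changed the processing or left out 1 library. That of *Cxcl5* stood close to the threshold and was lost in 8 of them.

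3T3-L1 is a mouse fibroblast line that becomes adipocyte-like in culture; its strain label is C57BL/6. From 2 days after confluency all cells received insulin (870 nM) and TZD (5 µM, troglitazone), together with Dex (1 µM, dexamethasone, a glucocorticoid) and IBMX (500 µM), the last pair being withdrawn on day 3. On day 7 they were infected with 100 pfu/cell of an adenovirus expressing LacZ, a bacterial enzyme used as the control (AdLacZ), or *Lmo3*, a LIM domain adaptor protein (AdLmo3), and RNA was taken 72 h later from 3 separate infections per virus. Both groups therefore carried an adenovirus, and uninfected cells were not analysed here. The comparison asks how expression of LMO3 in mature adipocytes alters these transcripts.

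Chemokines are small secreted proteins that draw leukocytes along a gradient: CC chemokines such as CCL2 act mainly on monocytes, and CXC chemokines such as CXCL1 and CXCL5 act mainly on neutrophils through the receptor CXCR2. Acute phase proteins are secreted proteins whose plasma level rises in inflammation, largely under IL-6, IL-1 and TNF acting through STAT3, C/EBP and NF-κB family factors. In fat, these genes are best known from obesity, in which adipocytes and the macrophages among them both produce many of them.

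The promoters of 4 of the genes are shown as examples of windows with matches to the binding consensus of NF-κB or to the C/EBP core. Through these sequences inflammatory signals classically reach this class of genes. Each run holds the 250 bases before the RefSeq start site (GRCm38.p6), written 5′ to 3′ on the strand of the gene, with the matches in capitals. The windows are chr5:90890995-90891244 on the plus strand for *Cxcl1*, chr5:30012864-30013113 on the plus strand for *Il6*, chr7:46715677-46715926 on the minus strand for *Saa3* and chr3:107760470-107760719 on the minus strand for *Csf1*.
Cxcl1: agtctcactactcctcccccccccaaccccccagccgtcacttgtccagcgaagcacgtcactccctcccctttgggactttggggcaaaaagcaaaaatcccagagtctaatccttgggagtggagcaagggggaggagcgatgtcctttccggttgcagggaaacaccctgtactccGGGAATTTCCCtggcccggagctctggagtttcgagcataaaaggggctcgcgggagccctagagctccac
Il6: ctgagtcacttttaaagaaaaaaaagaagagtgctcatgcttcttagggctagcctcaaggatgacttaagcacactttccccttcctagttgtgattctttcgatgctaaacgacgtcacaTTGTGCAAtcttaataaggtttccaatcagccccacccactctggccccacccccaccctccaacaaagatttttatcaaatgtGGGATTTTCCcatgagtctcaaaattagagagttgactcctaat
Saa3: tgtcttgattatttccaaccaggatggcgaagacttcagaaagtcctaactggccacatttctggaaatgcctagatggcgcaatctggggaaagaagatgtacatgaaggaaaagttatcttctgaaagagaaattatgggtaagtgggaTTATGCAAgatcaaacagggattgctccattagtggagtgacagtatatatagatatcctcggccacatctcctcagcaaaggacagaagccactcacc
Csf1: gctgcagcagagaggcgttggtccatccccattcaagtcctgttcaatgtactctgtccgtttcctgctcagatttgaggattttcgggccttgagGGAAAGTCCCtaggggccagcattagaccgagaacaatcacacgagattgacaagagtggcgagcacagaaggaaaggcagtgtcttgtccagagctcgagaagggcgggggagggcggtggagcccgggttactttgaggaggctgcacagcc

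Promoter sequences were matched for 6 of the 10 genes, namely *Ccl9*, *Cxcl1*, *Il6*, *Saa3*, *Lcn2* and *Csf1*. *Ccl2*, *Ccl7*, *Cxcl5* and *Hp* had no promoter entry, so neither of the genes called higher is covered. On either strand, the NF-κB consensus was matched in 4 of these 6 windows, against 7.25% of 32841 RefSeq promoters of the same length. Counted back from the start site, the matches begin 71 bases before it in *Cxcl1*, where a match on the other strand overlaps it, 44 in *Il6*, 154 in *Csf1* and 35 in *Ccl9*. The C/EBP core TTNNGCAA, in which N is any base, was matched in 3 of the 6 windows and in 9.57% of all promoters. It lies 128 bases before the start of *Il6*, 99 before that of *Saa3* and 216 before that of *Lcn2*. *Il6* was the one gene of the 6 with both. These matches describe the letters of the windows, and binding was not measured.

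The 6 libraries held 28035639 to 38332335 reads counted on genes, with the smallest total in AdLmo3 replicate 3. Values are given in CPM, that is, counts scaled to the size of the library and by its TMM factor. A gene was taken as detectable from 3 counts, which equal 0.0768 to 0.111 CPM depending on the library. Such floors cover counting error only. Fold changes and adjusted p-values come from edgeR's quasi-likelihood test with Benjamini-Hochberg adjustment over the 12766 genes tested, and a gene was called at an adjusted p under 0.05. Of these genes, 547 were called (4.28%), 346 higher (2.71%) and 201 lower (1.57%) in AdLmo3. An unadjusted p under 0.05, in either direction, was reached by 2635 of the tested genes (20.6%). With scaling to library totals alone the split was 266 higher and 501 lower, and the median log2 fold change of all tested genes moved from 0.00 to -0.07. Endogenous *Lmo3* had 0 counts in all 6 libraries. The virus carries a codon-optimized *Lmo3*, so this gene could not check the labels. Permuting 3 against 3 libraries cannot give a two-sided exact p below 0.1, so p-values are given only from the model fitted across all genes, and they measure the spread between separate infections of 1 cell line.

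*Hp*, which encodes haptoglobin, the plasma protein that binds free haemoglobin, was the most changed of the 10 genes. Its level was 172, 155 and 136 CPM in AdLacZ replicates 1, 2 and 3 and 350.0, 287 and 376 CPM in AdLmo3 replicates 1, 2 and 3. The lowest AdLmo3 library lay well above the highest AdLacZ library, and the groups did not overlap. The means were 154 ± 18.0 CPM in AdLacZ and 338 ± 45.7 CPM in AdLmo3 (SD, n = 3 each), a ratio of 2.19. This gave a log2 fold change of 1.13 with a standard error of 0.122 and a 95% interval from 0.85 to 1.41 (edgeR adjusted p = 0.00356). By its absolute log2 fold change *Hp* stood at percentile 99.0 of all tested genes. It was called in each of the 14 other fits run, which changed the test, scaling, filter or block or left out 1 library, with log2 fold changes from 1.05 to 1.23 and adjusted p-values up to 0.0331.

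*Cxcl5*, a CXC chemokine that attracts neutrophils, was the other gene called. Its level was 8.97, 7.40 and 7.05 CPM in AdLacZ and 11.9, 12.9 and 10.4 CPM in AdLmo3 replicates 1, 2 and 3. Every AdLmo3 library was above every AdLacZ library, with AdLmo3 replicate 3 closest to the controls. In edgeR the log2 fold change was 0.59 with a standard error of 0.132 and a 95% interval from 0.29 to 0.89 (edgeR adjusted p = 0.0474). This call stood close to the threshold. It was lost in 8 of the 14 other fits, in which the log2 fold change stayed between 0.52 and 0.67. The libraries whose omission ended it were AdLacZ replicates 2 and 3 (adjusted p = 0.112 and 0.183) and AdLmo3 replicates 1, 2 and 3 (adjusted p = 0.0888, 0.170 and 0.0537). Without AdLacZ replicate 1 it held (log2 fold change 0.70, adjusted p = 0.0459).

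**Figure D1:**
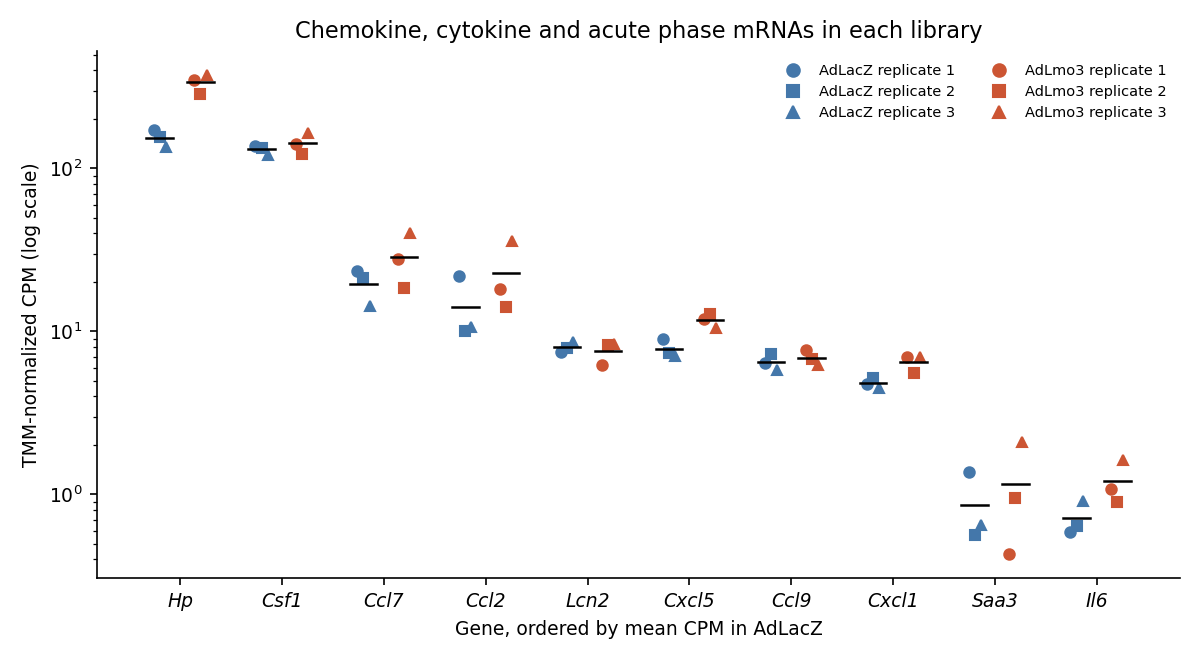
TMM-normalized CPM on a log scale (vertical axis) for each of the 10 genes (horizontal axis), with 1 point per library, AdLacZ in blue and AdLmo3 in red, and a bar at the group mean. The 3 AdLmo3 points of *Hp* lie between 287 and 376 CPM, above the AdLacZ points at 136 to 172 CPM, whereas the points of *Csf1*, *Lcn2* and *Ccl9* overlap between the groups.

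*Cxcl1*, the second neutrophil-attracting chemokine among the 10, had 4.75, 5.17 and 4.51 CPM in AdLacZ and 6.94, 5.59 and 6.96 CPM in AdLmo3 replicates 1, 2 and 3. The groups did not overlap, the gap being narrow between AdLacZ replicate 2 and AdLmo3 replicate 2. The log2 fold change was 0.43 with a standard error of 0.139 and a 95% interval from 0.11 to 0.75, and it did not pass the test after adjustment (unadjusted p = 0.0143 and adjusted p = 0.130, edgeR). Across the 14 other fits it ranged from 0.36 to 0.53, with adjusted p-values from 0.107 to 0.340. Groups that do not overlap were found in 3 of the 10 genes (*Hp*, *Cxcl5* and *Cxcl1*) and in 26.5% of all tested genes.

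None of the 3 CC chemokines passed the test, and both *Ccl2* and *Ccl7* varied widely between libraries of 1 group. *Ccl2*, also known as MCP-1 and the main attractant of CCR2-bearing monocytes, had 21.9, 10.1 and 10.6 CPM in AdLacZ and 18.3, 14.1 and 35.7 CPM in AdLmo3 replicates 1, 2 and 3. AdLacZ replicate 1 was above 2 of the 3 AdLmo3 libraries, so the groups overlapped. The log2 fold change was 0.67, but its 95% interval ran from -0.23 to 1.58 (edgeR adjusted p = 0.388). It was 0.20 without AdLmo3 replicate 3 and 1.13 without AdLacZ replicate 1.

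*Ccl7* (MCP-3), the neighbour of *Ccl2* and likewise a monocyte attractant, had 23.5, 21.1 and 14.4 CPM in AdLacZ and 28.0, 18.4 and 40.0 CPM in AdLmo3. As for *Ccl2*, AdLmo3 replicate 3 was the highest library and AdLmo3 replicate 2 fell within the controls. *Ccl7* had a log2 fold change of 0.54, with a 95% interval from -0.09 to 1.18 (edgeR adjusted p = 0.316), and 0.24 without AdLmo3 replicate 3.

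*Ccl9* (MIP-1γ), a chemokine that acts on CCR1, had 6.38, 7.27 and 5.81 CPM in AdLacZ and 7.75, 6.79 and 6.22 CPM in AdLmo3. The groups overlapped and the libraries of each group lay within 1.25-fold of each other. *Ccl9* had a log2 fold change of 0.09, with a 95% interval from -0.22 to 0.41 (edgeR adjusted p = 0.758). A difference of the size seen for *Hp* or *Cxcl5* lies outside this interval.

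The 2 cytokines differed in level. *Il6*, the inducer of the hepatic acute phase response, had 0.590, 0.640 and 0.914 CPM in AdLacZ and 1.08, 0.896 and 1.63 CPM in AdLmo3, from 21 to 44 reads in a library. AdLmo3 replicate 2 fell below AdLacZ replicate 3, so the groups overlapped by that pair of libraries. *Il6* had a log2 fold change of 0.73, with a 95% interval from 0.01 to 1.45 (unadjusted p = 0.0472 and adjusted p = 0.235, edgeR). The interval spans almost no change to more than the change of *Hp*. *Csf1*, which encodes the macrophage growth factor M-CSF, had 138, 134 and 122 CPM in AdLacZ and 141, 123 and 166 CPM in AdLmo3, from 4122 to 5236 reads in a library. Its log2 fold change was 0.13, with a 95% interval from -0.13 to 0.38 (edgeR adjusted p = 0.582), and 0.01 without AdLmo3 replicate 3.

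Neither of the other acute phase genes among the 10 passed the test. *Lcn2*, the iron-siderophore binding lipocalin 2, had 7.53, 7.96 and 8.58 CPM in AdLacZ and 6.21, 8.23 and 8.33 CPM in AdLmo3. AdLmo3 replicate 1 was the lowest of the 6 libraries, and the other AdLmo3 libraries lay within the range of the controls. The log2 fold change was -0.08, the only negative value among the 10, with a 95% interval from -0.41 to 0.24 (edgeR adjusted p = 0.796). It was 0.05 without AdLmo3 replicate 1.

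*Saa3*, the serum amyloid A gene that mouse adipocytes and macrophages express, had 1.38, 0.563 and 0.649 CPM in AdLacZ and 0.432, 0.951 and 2.11 CPM in AdLmo3, from 16 to 57 reads in a library. AdLmo3 held both the lowest and the highest library, which differed 4.89-fold. The log2 fold change was 0.39, with a 95% interval from -0.93 to 1.70 (edgeR adjusted p = 0.759), and its direction turned without AdLmo3 replicate 3 (-0.31). The liver forms *Saa1* and *Saa2* had at most 2 reads in any library.

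**Figure D2:**
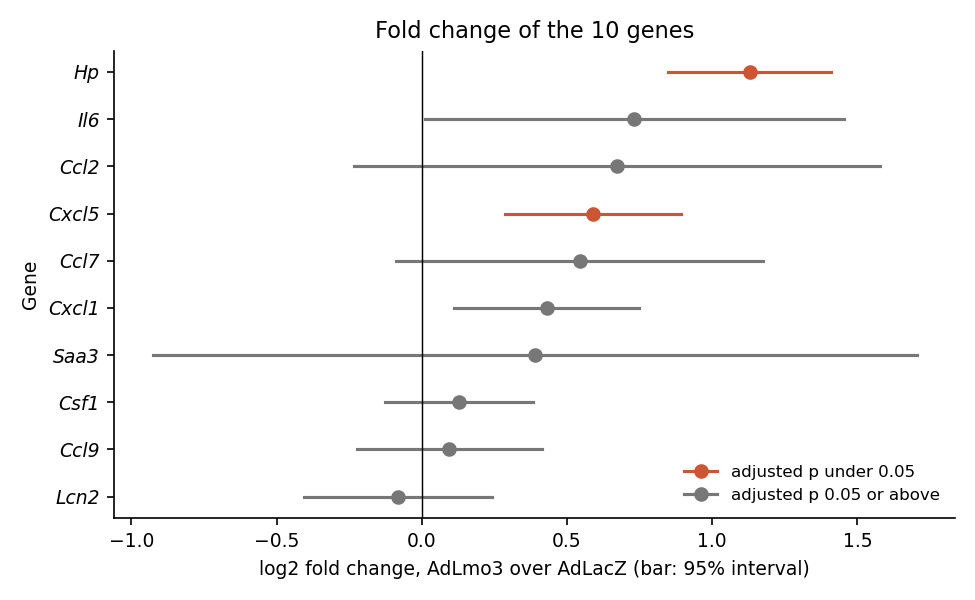
Log2 fold change of AdLmo3 over AdLacZ (horizontal axis) for each of the 10 genes (vertical axis), with 95% intervals as bars and genes called by edgeR in red. *Hp* (1.13) and *Cxcl5* (0.59) are red, and the interval of *Saa3*, from -0.93 to 1.70, is the widest.

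As a group, 2 of the 10 genes were called higher, where 2.71% of all tested genes were, and 0 were called lower (edgeR), with 0 lower at an unadjusted p under 0.05 and 0 lower by DESeq2 or limma voom. A positive log2 fold change was found for 9 of the 10 genes and for 50.4% of all tested genes. The median was 0.49 for the 10 and 0.00 for all. Since the 10 were chosen with earlier results of these data known, these counts are descriptions. The count of higher genes fell to 1, with the call of *Cxcl5* lost, in 3 of the 8 fits with another test, scaling, filter or block and in 5 of the 6 that left out a library. The summed level of the 10 genes was 310 to 385 CPM in the AdLacZ libraries and 478 to 654 CPM in the AdLmo3 libraries. *Hp* made up most of that difference. Its 2 group means lay further apart from each other than did the 2 summed group means of the other 9 genes.

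**Figure D3:**
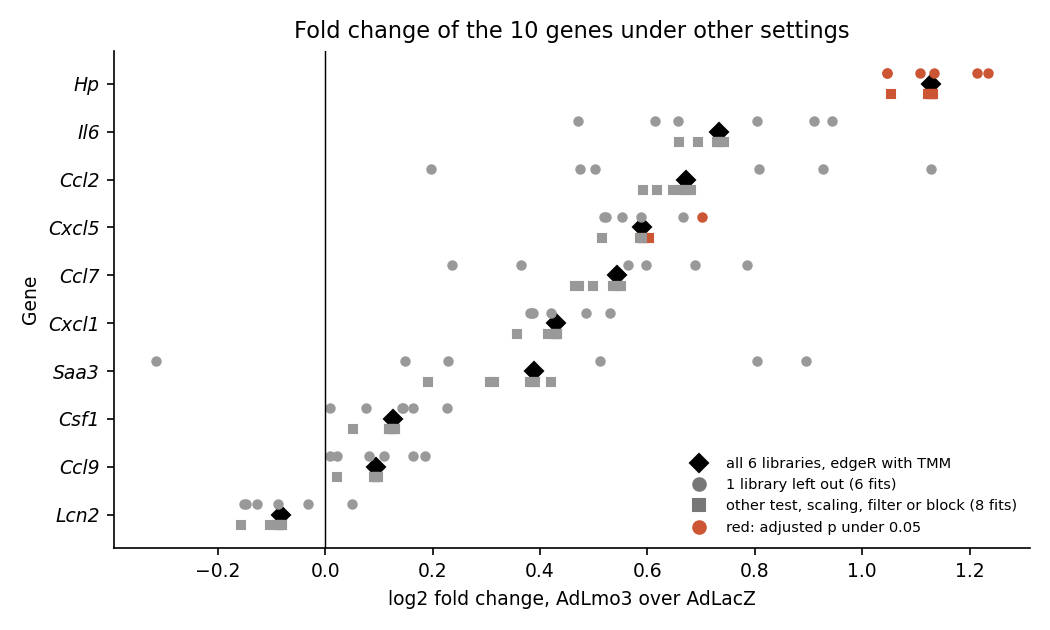
Log2 fold change of AdLmo3 over AdLacZ (horizontal axis) for the 10 genes (vertical axis) under the reported fit (black diamonds), 6 fits that leave out 1 library (circles) and 8 fits with another test, scaling, filter or block (squares), in red where the adjusted p was under 0.05. *Hp* is red throughout, between 1.05 and 1.23, *Cxcl5* is red in 6 of 14, and the circles of *Ccl2* run from 0.20 to 1.13.

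Levels were set side by side per length of exon, taken as all annotated exons of a gene joined. The mRNA that these cells make may be shorter, to a degree that differs between genes, so the order depends on this divisor. In CPM per kb of exon, *Hp* led in AdLacZ with 96.2 ± 11.2, followed by *Csf1* with 24.8 ± 1.61, *Ccl7* with 24.6 ± 5.88, *Ccl2* with 12.45 ± 5.86, *Cxcl5* with 4.19 ± 0.548, *Lcn2* with 3.06 ± 0.201, *Cxcl1* with 2.57 ± 0.178, *Ccl9* with 2.13 ± 0.242, *Saa3* with 0.331 ± 0.172 and *Il6* with 0.294 ± 0.0719 (SD, n = 3 each). Of the neighbours in this order, *Csf1* and *Ccl7*, *Ccl7* and *Ccl2*, and *Saa3* and *Il6* overlapped between libraries, and the other pairs did not. In AdLmo3 the order of levels per kb was *Hp* (210 ± 28.5), *Ccl7* (36.0 ± 13.5), *Csf1* (27.1 ± 4.08), *Ccl2* (19.95 ± 10.0), *Cxcl5* (6.30 ± 0.657), *Cxcl1* (3.47 ± 0.417), *Lcn2* (2.89 ± 0.456), *Ccl9* (2.27 ± 0.254), *Il6* (0.495 ± 0.157) and *Saa3* (0.447 ± 0.330). There *Ccl7* and *Csf1*, *Csf1* and *Ccl2*, *Cxcl1* and *Lcn2*, *Lcn2* and *Ccl9*, and *Il6* and *Saa3* overlapped. By this measure haptoglobin mRNA was the most abundant of the 10 in both groups, and the mRNAs of *Saa3* and *Il6* were the least.

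The genes also differed in how far replicates of 1 group lay apart. The highest library exceeded the lowest 2.17-fold in AdLacZ and 2.52-fold in AdLmo3 for *Ccl2*, 1.63-fold and 2.17-fold for *Ccl7*, 1.55-fold and 1.82-fold for *Il6*, and 2.45-fold and 4.89-fold for *Saa3*. The median over all tested genes was 1.16-fold in either group. *Hp* (1.26-fold and 1.31-fold), *Cxcl5* (1.27-fold and 1.23-fold) and *Ccl9* (1.25-fold in both) stayed closer to it, as did *Cxcl1*, *Lcn2* and *Csf1* with 1.13-fold to 1.35-fold. Expressed as edgeR's biological coefficient of variation, the spread was 0.333 for *Ccl2*, 0.237 for *Ccl7*, 0.215 for *Il6* and 0.458 for *Saa3*, and 0.113 to 0.125 for the other 6 genes, against a common value of 0.119.

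AdLmo3 replicate 3 was the highest library of its group in 8 of the 10 genes and in 36.3% of all tested genes, and AdLmo3 replicate 2 was the lowest in 6 of the 10 and in 30.9% of all. Among the controls, AdLacZ replicate 1 was the highest in 6 of the 10 (34.3% of all) and AdLacZ replicate 3 the lowest in 6 (30.0% of all). Without AdLmo3 replicate 3, the log2 fold changes of *Ccl2*, *Ccl7*, *Il6* and *Csf1* were 0.20, 0.24, 0.47 and 0.01, and those of *Cxcl5* and *Hp* were 0.67 and 1.05.

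**Figure D4:**
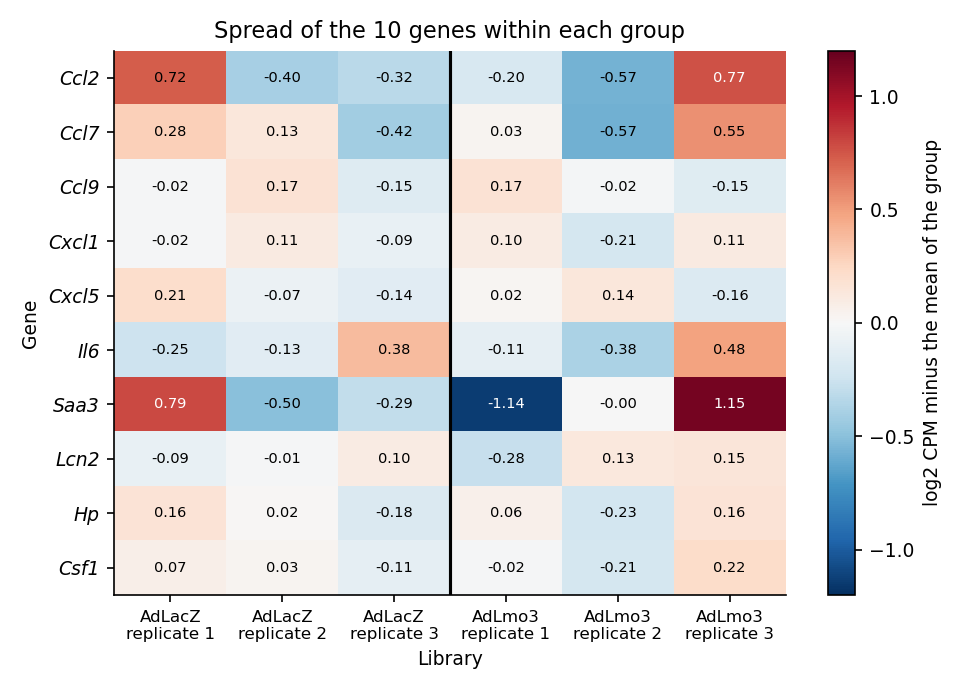
Deviation of each library (columns) from the mean of its group in log2 CPM (colour and printed value) for the 10 genes (rows), with a line between AdLacZ and AdLmo3. *Saa3* and *Ccl2* show the deepest colours, with 1.15 and 0.77 in AdLmo3 replicate 3.

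Several of the genes are neighbours in the genome (GRCm38). *Ccl2* (chromosome 11, 82035571 to 82037453) and *Ccl7* (82045712 to 82047525) lie on the plus strand with start sites 10.1 kb apart, in the cluster of monocyte and eosinophil attractants. In that cluster, *Ccl11* (eotaxin) had a log2 fold change of 0.68 (edgeR adjusted p = 0.258) and *Ccl8* of 0.25 (edgeR adjusted p = 0.664), and *Ccl12*, a near relative of *Ccl2*, had at most 1 read in a library. These 4 measurable neighbours therefore shared a positive sign, and none passed the test. *Ccl9* (chromosome 11, 83572919 to 83578636, minus strand) lies 1543 kb from *Ccl2*, between *Ccl5* (RANTES, 1.04, edgeR adjusted p = 0.172) and its paralog *Ccl6* (0.77, edgeR adjusted p = 0.240), whereas *Ccl3* and *Ccl4* had at most 1 read.

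*Cxcl5* (chromosome 5, 90759360 to 90761624) and *Cxcl1* (90891241 to 90893115), both on the plus strand, have start sites 131.9 kb apart. Of the CXC genes around them, *Cxcl2* had 0 reads in all libraries, *Cxcl3* at most 3 and *Cxcl15* and *Pf4* at most 6, while *Ppbp* had 5 to 14, too few to be tested. In these adipocytes *Cxcl5* and *Cxcl1* were accordingly the 2 genes of that neighbourhood with enough counts to be tested. *Il6* lies on chromosome 5 (30013114 to 30019981), *Saa3* on chromosome 7 (46711998 to 46715700), *Lcn2* on chromosome 2 (32384633 to 32388252), *Hp* on chromosome 8 (109575128 to 109579172) and *Csf1* on chromosome 3 (107741048 to 107760469). The exons of the 10 genes overlap no exon of another gene, and at most 1.54% of the 75 bp stretches of any of them (*Saa3*) occur in another gene.

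Of 31 other chemokines, 14 had enough counts to be tested and 11 had no library above 3 reads. None of the 14 was called in either direction by edgeR, which called 4.28% of all tested genes. At an unadjusted p under 0.05 (edgeR), 4 were higher and 0 lower (20.6% of all tested genes in either direction). DESeq2 called 2 of the 14, and 1104 of all 12917 genes it tested, and limma voom called 0 of the 14. The log2 fold changes were positive in 11 of the 14, against 50.4% of all tested genes. Their median was 0.49, against 0.00 for all. *Cxcl12* (SDF-1), the CXCR4 ligand of stromal cells, had 209, 223 and 148 CPM in AdLacZ and 328, 292 and 237 CPM in AdLmo3 replicates 1, 2 and 3. The groups did not overlap (log2 fold change 0.56, edgeR adjusted p = 0.108). It passed with DESeq2 (adjusted p = 0.00569). *Cxcl10*, an interferon-induced chemokine, had 26.2, 41.3 and 34.3 CPM in AdLacZ and 11.4, 17.4 and 59.5 CPM in AdLmo3, with AdLmo3 replicate 3 the highest of the 6 and replicates 1 and 2 the lowest. Its log2 fold change was -0.22 (edgeR adjusted p = 0.864), and without AdLmo3 replicate 3 it was -1.24 (adjusted p = 0.0335).

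Of 33 other acute phase genes, 17 had enough counts. Of these, 5 were called higher and 0 lower by edgeR, against 2.71% and 1.57% of all tested genes. At an unadjusted p under 0.05 (edgeR) 1 was lower, and 0 were called lower by DESeq2 or limma voom. *Orm3* and *Orm1* encode orosomucoids, plasma carrier proteins also called α1-acid glycoproteins. *Orm3* rose from 2.99 ± 0.838 to 8.80 ± 2.15 CPM (log2 fold change 1.55, edgeR adjusted p = 0.0152) and *Orm1* from 117 ± 20.0 to 222 ± 45.6 CPM (0.92, edgeR adjusted p = 0.0235; SD, n = 3 each). In *Orm1*, 13.8% of the 75 bp stretches also occur in *Orm2*, so reads of these paralogs may have been split. *Agt*, the angiotensinogen gene, rose from 85.2 ± 10.5 to 176 ± 31.4 CPM (1.05, edgeR adjusted p = 0.00915).

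*C3*, the central complement component, rose from 1978 ± 17.0 to 3348 ± 492 CPM (0.76, edgeR adjusted p = 0.0115), and *Steap4*, a metalloreductase of adipocytes, from 43.6 ± 2.44 to 55.3 ± 3.97 CPM (0.34, edgeR adjusted p = 0.0443). In each of these 5 genes the groups did not overlap, as in 26.5% of all tested genes. Without AdLacZ replicate 3, edgeR called none of the 17: the log2 fold changes were then 1.55 for *Orm3*, 1.09 for *Agt*, 0.94 for *Orm1*, 0.76 for *C3* and 0.39 for *Steap4*, with adjusted p-values of 0.0847, 0.0558, 0.107, 0.0711 and 0.101. Without AdLacZ replicate 2 the calls of *Orm3*, *Orm1* and *Steap4* were lost (adjusted p = 0.0504, 0.0654 and 0.105), without AdLmo3 replicate 2 those of *Orm1* and *Steap4* (0.0672 and 0.158), and without AdLacZ replicate 1 or AdLmo3 replicate 3 that of *Steap4* (0.123 and 0.109). With all libraries scaled to their totals only, *Steap4* was not called either (log2 fold change 0.27, adjusted p = 0.0671). The summed level of the 33 genes was 2702 to 3003 CPM in AdLacZ and 4076 to 5039 CPM in AdLmo3, and 15 of the 33 had no library above 3 reads.

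**Figure D5:**
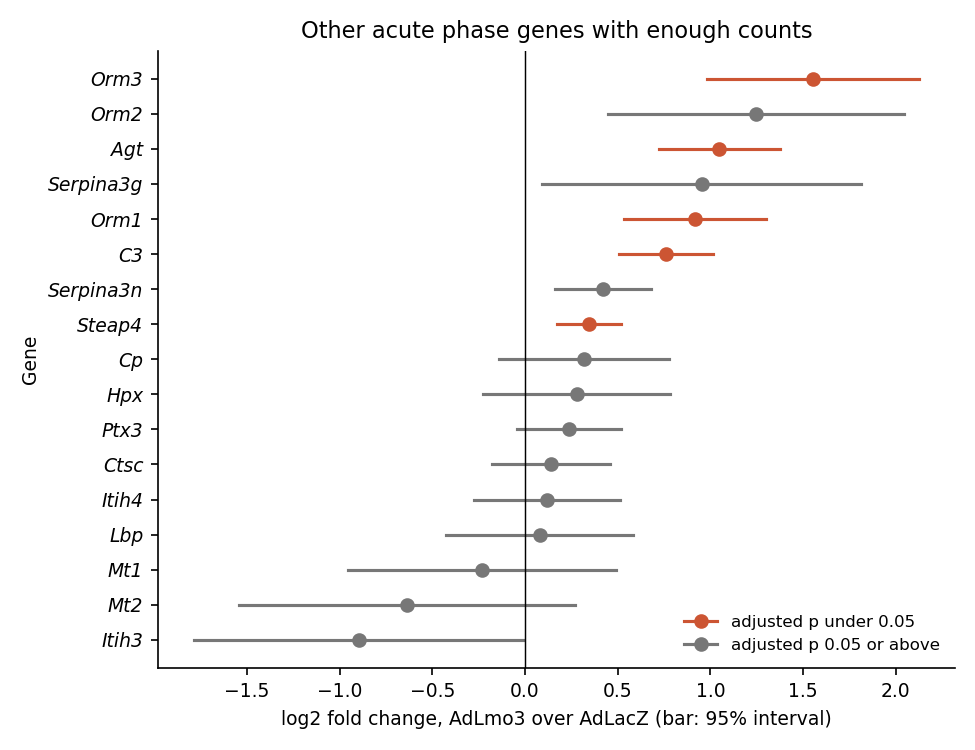
Log2 fold change of AdLmo3 over AdLacZ (horizontal axis) for the 17 other acute phase genes with enough counts (vertical axis), with 95% intervals as bars and the 5 genes called by edgeR in red. *Orm3* is highest at 1.55, and 3 of the 17 genes, *Mt1*, *Mt2* and *Itih3*, lie below 0.

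The receptors of the 10 genes' products were unevenly present. *Ccr2*, the CCL2 and CCL7 receptor, had 0 reads in all 6 libraries, and *Cxcr2*, the CXCL1 and CXCL5 receptor, had 0 reads in AdLacZ and at most 3 in AdLmo3. *Csf1r*, the CSF1 receptor, had 14 to 30 reads in a library (log2 fold change 0.49, edgeR adjusted p = 0.442). Of its exon bases 15.1% overlap *Hmgxb3* on the opposite strand, and 13.9% of its 75 bp stretches occur there. Some of these few reads may therefore be of *Hmgxb3*. The subunits of the IL-6 receptor were both present, with 380 ± 16.2 and 333 ± 34.8 CPM for *Il6st*, the signalling chain gp130 (-0.19, edgeR adjusted p = 0.278), and 16.9 ± 1.23 and 20.7 ± 2.26 CPM for *Il6ra*, the ligand-binding chain (0.29, edgeR adjusted p = 0.161), in AdLacZ and AdLmo3. Of the 27 receptors listed, 16 were tested and 0 called by edgeR, with 2 higher and 0 lower at an unadjusted p under 0.05 (20.6% of all tested genes in either direction) and 0 by DESeq2 or limma voom. *Tnfrsf1a*, the TNF receptor 1, had 289 ± 13.7 and 317 ± 20.6 CPM (0.14, edgeR adjusted p = 0.356).

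The upstream cytokines of the acute phase response were scarce in the counts. *Tnf*, *Il1a* and *Il1b* had 0 reads in all 6 libraries. Of 31 other cytokines, 12 were tested and 0 called by edgeR, with 3 higher and 0 lower at an unadjusted p under 0.05 (20.6% of all tested genes in either direction) and 0 called by DESeq2 or limma voom. The most abundant was *Mif*, the macrophage migration inhibitory factor, with 141 CPM in AdLacZ and 139 CPM in AdLmo3 (log2 fold change -0.02, edgeR adjusted p = 0.982), and 38.3% of its 75 bp stretches occur in other genes. *Ctf1* (cardiotrophin 1), a gp130 cytokine, had 11.5 ± 0.812 and 14.1 ± 1.11 CPM, with groups that did not overlap (0.30, edgeR adjusted p = 0.145).

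All 25 listed regulators of NF-κB and C/EBP signalling were tested. Of these, 2 were called higher and 0 lower by edgeR, against 2.71% and 1.57% of all tested genes. At an unadjusted p under 0.05 (edgeR) 1 was lower, and 0 were called lower by DESeq2 or limma voom. *Cebpa*, a transcription factor that maintains the adipocyte programme, rose from 223 ± 14.0 to 335 ± 26.4 CPM (0.59, edgeR adjusted p = 0.0111). Without AdLacZ replicate 3 the call of *Cebpa* was lost, with a log2 fold change of 0.61 (edgeR adjusted p = 0.0601). *Zc3h12a*, which encodes the RNase regnase-1 that degrades *Il6* mRNA, rose from 10.7 ± 1.33 to 15.9 ± 0.528 CPM (0.57, edgeR adjusted p = 0.0290). That call was lost when any one of AdLacZ replicates 1 and 3 and AdLmo3 replicates 1, 2 and 3 was left out, with log2 fold changes from 0.47 to 0.59 and adjusted p-values from 0.0519 to 0.112. Over the 25 genes the median log2 fold change was 0.05, with 15 positive and 10 negative.

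Marker genes of the cells in the dish were read beside these results. Of 10 adipocyte markers, 7 were called higher in AdLmo3 and 0 lower by edgeR, against 2.71% and 1.57% of all tested genes. At an unadjusted p under 0.05 (edgeR) 0 were lower, and 0 were called lower by DESeq2 or limma voom. Among the 7 were *Adipoq* (adiponectin), with a log2 fold change of 1.05 (edgeR adjusted p = 0.00724), and *Retn* (resistin), with 1.44 (edgeR adjusted p = 0.00243). Not called were *Lep* (0.49, edgeR adjusted p = 0.224), *Slc2a4* (0.08, edgeR adjusted p = 0.675) and *Lpl* (0.23, edgeR adjusted p = 0.294). The count called higher among the 10 markers was 2 without AdLacZ replicate 3 and 4 without AdLacZ replicate 2 or without AdLmo3 replicate 2. Their summed level was 19280 to 21410 CPM in AdLacZ and 26290 to 31720 CPM in AdLmo3, and so moved in the same direction as *Hp*, *Cxcl5* and the acute phase genes called. In these bulk libraries fewer cells of a type and less RNA per cell cannot be told apart, and the part of this shift in the results above was not tested.

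The 11 preadipocyte and fibroblast markers summed to 18390 to 22190 CPM in AdLacZ and 17400 to 25380 CPM in AdLmo3, with 0 of 10 tested genes called by edgeR, 0 at an unadjusted p under 0.05 and 0 by DESeq2 or limma voom. The 14 macrophage markers summed to 5.31 to 6.67 and 3.63 to 6.16 CPM. Of these, *C1qa*, *C1qb* and *Tyrobp* had 0 reads throughout, *Adgre1* at most 2 and *Ptprc* at most 1. Others were counted in every library, with 40 to 163 reads for *Cd68*, 29 to 67 for *Lyz2*, 14 to 30 for *Csf1r* and 6 to 28 for *Aif1*. For *Csf1r* the overlap with *Hmgxb3* applies here too. The 11 neutrophil and lymphocyte markers found summed to 1.25 to 2.53 and 1.85 to 2.57 CPM. Among them *Cd3e* and *Ms4a1* had 0 reads, whereas *S100a8* had 23 to 63 and *Elane* 15 to 31 in a library. The 6 endothelial markers summed to 1.88 to 2.79 and 1.37 to 2.16 CPM. None of the 9 genes tested in these last 3 lists was called by edgeR, with 1, an endothelial gene, lower at an unadjusted p under 0.05, and none by DESeq2 or limma voom.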

How the data were processed

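RNA-Seq was run on 3 AdLacZ and 3 AdLmo3 libraries of 3T3-L1 adipocytes (NEBNext Ultra II kit, single reads of 75 bp). The authors mapped the reads to the mouse assembly mm10 with STAR (2.5.0b per the submitters' processing notes) and deposited raw counts of reads per gene symbol, 1 table per library and not normalized. The counting program, its strand setting and the annotation are not given in the sources used here. The tables' lines for reads on no gene (7.15% to 8.94%) and on several genes (0.476% to 0.543%) were left out of totals and tests. Groups and replicate numbers come from the labels, which give no batch, and replicates differed by more than sampling noise in every pair.

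The main test was the two-sided quasi-likelihood test of edgeR 4.0.16 under R 4.3.3, after filterByExpr and TMM scaling and with no replicate block. Its p-values were adjusted over 12766 genes (Benjamini-Hochberg) and read at a threshold of 0.05. The authors used DESeq2. The alternatives were DESeq2 1.42.0, limma 3.58.1 voom, RLE and upper quartile factors, library totals only, no count filter, a mean count of 10 or more, the replicate number as a block, and leaving out each library. On simulated counts for this comparison (12675 genes), edgeR recovered 168 of 200 genes changed by a log2 fold change of 1, with 5.62% false calls. Smaller changes, such as those fitted for *Cxcl5* and the 8 genes not called, were not simulated. The share of such changes that the test would call is therefore not known.

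Positions, exon lengths and stretches shared between genes come from GENCODE M21 (GRCm38), and promoters from RefSeq (GRCm38.p6). The genes named are the 10 in full, *Lmo3*, near paralogs of the 10, and *Csf1r*, *Il6ra*, *Il6st*, *Ccr2* and *Cxcr2* as receptors. Of each other list except the marker lists, the called genes are named, at most 5 by absolute log2 fold change. Where fewer than 2 were called, the 2 of highest mean CPM are named. Members of the marker lists and *Tnf*, *Il1a*, *Il1b* and *Itih3* were named outside this rule. Genes named as genomic neighbours of the 10 and those in the closing section were added after their values were seen. The 10 genes and all lists were chosen with earlier results of these data known, so counts over them are descriptions.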

Additional observations from a re-analysis of the deposited data

How the results depend on the processing

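Over the 10 genes and 14 alternatives, 130 of 140 log2 fold changes kept their direction and their side of the threshold, 8 lost the call (all *Cxcl5*) and 2 turned sign. Genes called numbered 547, 1104 with DESeq2, 659 without a count filter and 767 with library totals only. Leaving out 1 library gave 77 to 501 calls, the fewest without AdLacZ replicate 3 and the most without AdLmo3 replicate 1. Each of these fits had 5 libraries, and the cause of the shifts was not tested. Of the 10 genes, 1 was called higher with upper quartile factors (*Cxcl5* 0.59, adjusted p = 0.0560), with library totals only (0.52, 0.0645) and with the replicate block (0.59, 0.0503), and 1 to 2 were when 1 library was left out. None was called lower in any fit. Leaving out 1 library, log2 fold changes ran from -0.15 to 0.05 for *Lcn2*, from -0.31 to 0.89 for *Saa3*, from -1.24 to 0.17 for *Cxcl10* and from -0.29 to 0.30 for *Mif*, which was also positive with limma voom (0.054) and with the replicate block (0.0494). The viruses share replicate numbers, and deviations from the group means correlated by 0.03, 0.18 and 0.18 between libraries of the same number. AdLacZ replicates 2 and 3 correlated best with their own number, and AdLacZ replicate 1 did not. These correlations do not settle whether the numbers are pairs. The study's methods name no block, so the numbers were not taken as pairs in the main fit. With the replicate block 498 genes were called. *Steap4* (0.34, adjusted p = 0.0527) was then not called and *Cxcl12* (0.57, adjusted p = 0.0218) was. *Steap4* was not called with library totals only either (0.27, adjusted p = 0.0671). *Il6* and *Saa3* had the fewest reads of the 10 genes, 16 to 57 in a library, and their values carry the most counting error.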

Other observations

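Some genes of the same lists lay outside the naming rule and were picked after their values were seen. In 26.5% of all tested genes the groups did not overlap, so this trait is not particular to the genes below. *Lif*, which encodes a cytokine that signals through gp130 as IL-6 does, had 0.984, 0.589 and 0.472 CPM in AdLacZ and 1.21, 1.36 and 1.78 CPM in AdLmo3 replicates 1, 2 and 3. The groups did not overlap, and the difference did not pass the test after adjustment (log2 fold change 1.07, standard error 0.319, adjusted p = 0.106 by edgeR's quasi-likelihood test). Its receptor chain *Lifr* had 95.5 ± 7.33 and 118 ± 16.2 CPM (SD, n = 3 each; 0.30, edgeR adjusted p = 0.166), again with groups that did not overlap. *Il18* had 1.45 ± 0.136 and 2.07 ± 0.319 CPM (0.51, edgeR adjusted p = 0.207).

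Within the NF-κB regulators, the inhibitor gene *Nfkbia* had 30.0, 29.6 and 27.6 CPM in AdLacZ and 33.9, 33.9 and 37.5 CPM in AdLmo3 (0.27, edgeR adjusted p = 0.0821), while the nuclear IκB gene *Bcl3* had 8.07, 10.4 and 9.08 CPM in AdLacZ and 7.56, 6.00 and 6.92 CPM in AdLmo3 (-0.43, edgeR adjusted p = 0.131). Neither passed the test, and in neither did the groups overlap, as in 26.5% of all tested genes. *Cebpb* and *Cebpd*, the C/EBP genes linked to the acute phase response, had log2 fold changes of 0.21 and 0.05 (edgeR adjusted p = 0.335 and 0.898). Among the acute phase genes not called, *Orm2* (1.25, edgeR adjusted p = 0.0900) and *Serpina3n* (0.42, edgeR adjusted p = 0.0823) had groups that did not overlap. The stress-responsive metallothionein genes *Mt1* and *Mt2* varied from 125 to 314 CPM and from 69.6 to 237 CPM within AdLacZ, with AdLacZ replicate 1 the lowest and replicate 2 the highest for both.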
